A study of Mus musculus with 1152 samples.

Results

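Microglia are the macrophages that live in the brain, and those of the cortex of 5xFAD mice were compared here with those of the cortex of wild-type (WT) mice. The comparison took every well labelled as a cortical cell of either genotype that passed the cell filter (500 genes or more, 10000 gene reads or more, and no more than 20% of reads from mitochondrially encoded genes). It held 183 cells of 4 5xFAD mice and 167 cells of 4 WT mice, which together were 350 of the 1041 cells kept in the whole series. 5xFAD mice carry mutant human transgenes of familial Alzheimer disease under the Thy1 promoter, which is active in neurons, and form amyloid plaques; the WT mice carry none. The labels give the strain C57BL/6J for both genotypes, no treatment and no age. Brains had been perfused and separated on Percoll, and single cells had been stained for CD11b, CD45, Ly6C, Ly6G and CD206 and sorted 1 to a well. Per the series' design text the replicates were mice, and the regions came from the same mice; that a replicate number marks the same mouse in each region is not stated. Each cell was sequenced with Smart-seq2, which covers whole transcripts and has no molecular identifiers. The 5xFAD cortex cells lay on 1 plate (A) together with WT cerebellum cells of 4 mice. WT cortex cells lay on another plate (B) together with WT hippocampus. Genotype and plate therefore cannot be told apart in any difference reported for the cortex.

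In a healthy brain microglia survey the tissue with surface receptors such as the purinergic receptor P2ry12 and the fractalkine receptor Cx3cr1, and they take up debris through receptors whose cargo ends in lysosomes, where cathepsins cut proteins and other hydrolases cut sugars and lipids. Around amyloid plaques, microglia are known to pass into a disease-associated state that depends in part on the lipid-sensing receptor Trem2 and its adaptor Tyrobp. In that state genes of lysosomes, lipid handling and antigen presentation are high, among them Apoe, Lpl, Cst7 and the lectin receptor gene Clec7a, and surveying receptors are low.

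The reads of all kept cells of a mouse were added up, so that the mouse was the replicate. These sums held 10422477 to 12775023 reads in 5xFAD and 5696201 to 8751028 reads in WT, and the median cell had 256681 reads and 2822 genes in 5xFAD and 198492 reads and 2583 genes in WT. The 10 microglia markers summed to 64370 to 66100 CPM (reads scaled to a common library size) in 5xFAD and 64800 to 68340 CPM in WT, so the sorted cells carried their defining genes at a like total in both. Among 10 other cell types, 0 of 57 tested markers passed in edgeR, 13 had an unadjusted p under 0.05, and 2 passed in DESeq2. Kept wells with 3 or more markers of another cell type at 10 CPM or more numbered 8, 2, 3 and 4 in the 5xFAD mice. In the WT mice they numbered 5, 7, 4 and 4. Neutrophil markers summed to 622.0 to 706.7 CPM in 5xFAD and 425.3 to 606.1 CPM in WT, nearly all from Csf3r (678.6 and 519.7 CPM), and B cell markers to 874.8 to 1101 CPM and 647.0 to 812.3 CPM, mostly from Ighm (892.0 and 649.4 CPM); these sums did not overlap, and their part in the results was not tested. Border macrophage markers summed to 7.45 to 41.2 CPM in 5xFAD and 2.02 to 290.6 CPM in WT, the upper value coming from WT mouse 1. In that mouse 1 well held 98.0% of the reads of Mrc1, the gene of the CD206 receptor, and all reads of the platelet factor gene Pf4, had 3 reads of P2ry12 and had no read of Tmem119. Results that rest on this well are given with and without it.

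Of 17358 genes tested, 51 (0.294%) passed an adjusted p of 0.05, 42 higher (0.242%) and 9 lower (0.0518%) in 5xFAD cortex, and 2039 had an unadjusted p under 0.05. Lysosomal proteases, MHC class I genes, the Trem2 receptor pair and a set of lipid and phagocyte genes were higher, while the surveying receptor gene P2ry12 and a few other genes were lower. For all 51 genes the values of the 4 mice of each genotype did not overlap, against 5.71% of all genes tested. The 51 were picked by their p on these same values, so their separation largely follows from the call and adds no support. In 24 of the 51 the call held whichever of the 8 mice was left out, and 0 of the 51 changed sign in any setting. In DESeq2 all 51 passed, and in a fit of only the 8 cortex sums 21 did. Leaving out the wells with markers of another cell type ended 14 of the calls. They were those of Baiap2l2, Capg, Cd9, Ch25h, Crybb1, Eef2, Hcar2, Hexa, Kdelc1, Man2b1, Myo1e, Pld3, Tyrobp and 1 predicted gene. With limma voom in place of edgeR 15 of the 51 passed, the same 15 with and without the mouse as a block across regions. For this block the replicate number within a genotype was taken as the mouse. Its consensus correlation was -0.00837, so the fits with and without it had to be nearly alike and say nothing on pairing. A block on the replicate number in edgeR, which also ties mice of different genotype, ended 12 of the calls, with adjusted p of 0.0503 to 0.0962: those of Baiap2l2, Cd9, Dgkd, Dpp7, Hcar2, Man2b1, Myo1e, Npc2, Rgs2, mt-Nd3 and 2 predicted genes. Of the genes that passed, 34 are on at least 1 of the gene lists described here, 30 of them higher and 4 lower. All these lists were chosen with earlier results of these data known, so the overlap is a description. The share of all tested genes that are on a list was not counted. For each list count that follows, the background is 0.242% of tested genes higher and 0.0518% lower, with 8010 of 17358 log2 fold changes positive.

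The higher genes were sorted into 2 kinds, with 2 genes between, by set limits of 75% and 50% of 5xFAD cells with a read. A first kind of 28 genes had a read in 76.5% to 100% of the 5xFAD cells, and their log2 fold changes were moderate, between 0.52 and 1.92 with a median of 0.86. The cathepsins, the MHC class I genes, Trem2 and Tyrobp are of this kind. A second kind of 12 genes had a read in 9.84% to 38.3% of the 5xFAD cells and log2 fold changes from 1.46 up. Lpl, Ch25h, Hcar2, Ank and Myo1e are of this kind, and the tenth of 5xFAD cells with most reads held 55.5% to 100% of the reads of each of the 12. The remaining higher genes, the diacylglycerol kinases Dgkz and Dgkd, lay between, with 57.9% and 73.8% of 5xFAD cells.

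**Figure D1:**
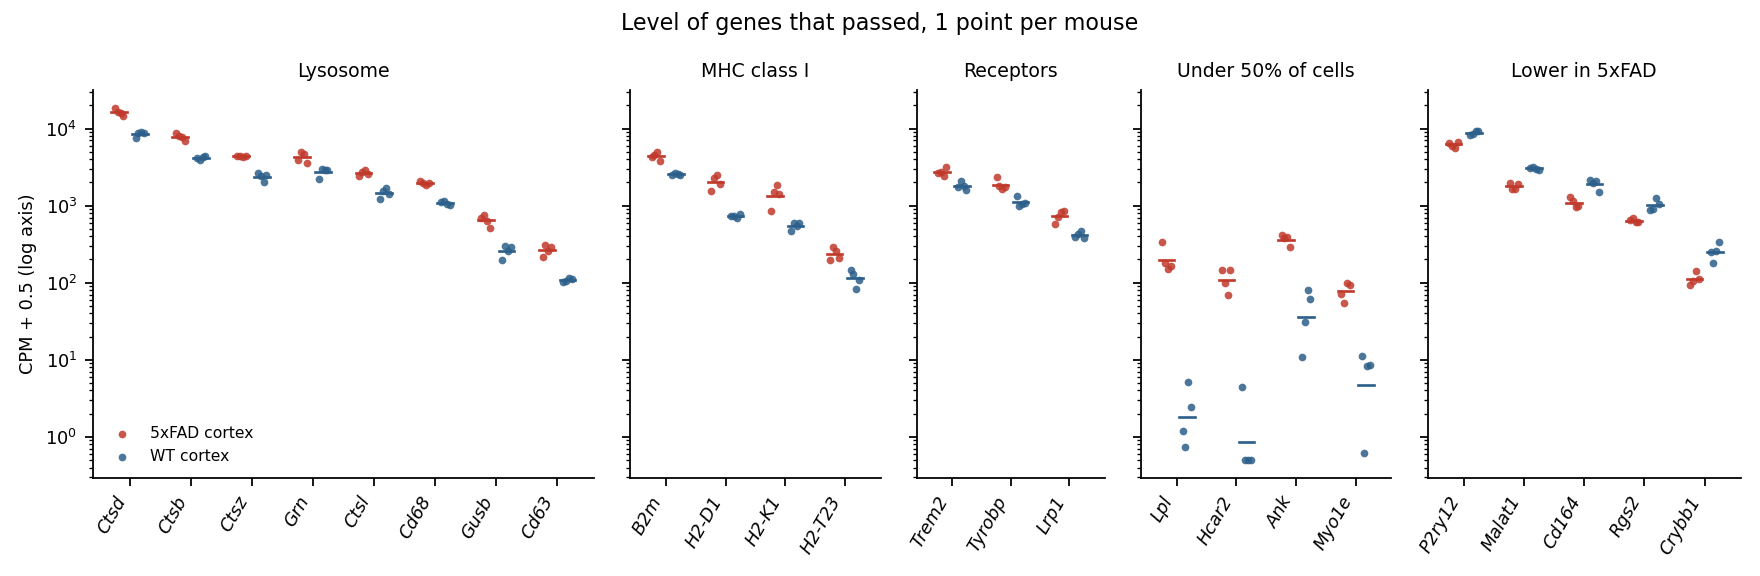
Level of 24 genes that passed, in CPM plus 0.5 on a log axis, with 1 point per mouse (5xFAD cortex left, WT cortex right) and lines at the geometric means. In each gene shown the 4 5xFAD points and the 4 WT points do not overlap; the lysosomal, MHC class I and receptor genes sit at moderately different levels, and Lpl and Hcar2 are near 0 CPM in WT.

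Lysosomal proteases and hydrolases were higher in 5xFAD cortex. Ctsd, the aspartic protease cathepsin D (chromosome 7, 142375911 to 142388038, minus strand, GRCm38), had 18620, 16340, 16060 and 14350 CPM in the 4 5xFAD mice, against 7627, 8828, 9054 and 8712 CPM in the 4 WT mice. Every 5xFAD mouse lay above every WT mouse, and the log2 fold change was 0.93 ± 0.13 (SE; adjusted p = 0.000533), or 1.91-fold. The cysteine protease gene Ctsb (cathepsin B) had 8672, 8046, 7727 and 6863 CPM in 5xFAD and 4179, 3958, 4246 and 4386 CPM in WT, again with a clear gap between the genotypes (0.90 ± 0.10, adjusted p = 2.77e-05). Ctsz, the carboxypeptidase cathepsin Z, was the most even of these within 5xFAD, at 4459, 4376, 4258 and 4418 CPM, against 2664, 2413, 2039 and 2463 CPM in WT (0.87 ± 0.12, adjusted p = 0.000462). Ctsl, cathepsin L, had 2387, 2746, 2872 and 2608 CPM in 5xFAD and 1216, 1564, 1668 and 1417 CPM in WT (0.86 ± 0.13, adjusted p = 0.00172). Gusb, the hydrolase beta-glucuronidase, was less abundant and moved more, with 688.6, 766.5, 638.9 and 510.8 CPM in 5xFAD and 198.2, 297.9, 256.6 and 291.4 CPM in WT (1.32 ± 0.19, adjusted p = 0.000714). These calls held without each mouse in turn. Limma voom gave Ctsd 0.98 with an SE of 11.8 (adjusted p = 0.987) and Ctsb 0.83 with an SE of 11.6 (adjusted p = 0.988), and did not call Ctsz, Ctsl or Gusb either (0.401, 0.138 and 0.0517). Among the mice, log2 CPM had an SD of 0.154 in 5xFAD and 0.111 in WT for Ctsd, and of 0.141 and 0.062 for Ctsb. Why the voom SEs of Ctsd and Ctsb were so much larger than this spread was not tested.

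Of 33 tested cathepsins and lysosomal enzymes, 8 rose and 0 fell, against 0.242% and 0.0518% of all genes tested. All 33 had a positive log2 fold change, against 8010 of all 17358 genes tested. Their median was 0.54, beside a median of -0.09 over all genes tested. DESeq2 called 12 of the 33 and voom 0. The list was chosen with earlier results of these data known, so its count is a description. The other members that rose were Pld3, a phospholipase D family exonuclease of lysosomes (1.24 ± 0.24, adjusted p = 0.0207), Hexa, the alpha subunit of hexosaminidase (0.61 ± 0.12, adjusted p = 0.0223), and the mannosidase gene Man2b1 (0.54 ± 0.11, adjusted p = 0.029). Summed over the list, 5xFAD mice had 81310 to 89270 CPM and WT mice 60440 to 65860 CPM. The calls of Pld3, Hexa and Man2b1 were lost in 5, 6 and 6 of the 8 fits without 1 mouse, where the largest adjusted p were 0.0919 and 0.0973 without WT mouse 3 and 0.154 without 5xFAD mouse 2.

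Among 32 lysosomal membrane proteins, cofactors and proton pump subunits, 4 rose and 0 fell, with a median log2 fold change of 0.16. Cd68, the lysosomal membrane protein used as a phagocyte marker, had 2087, 1990, 1865 and 1949 CPM in 5xFAD and 1104, 1140, 1049 and 1022 CPM in WT (0.87 ± 0.12, adjusted p = 0.000714). Cd63, a tetraspanin of late endosomes, had 213.0, 308.3, 256.8 and 292.0 CPM in 5xFAD and 100.9, 106.2, 114.8 and 111.4 CPM in WT (1.3 ± 0.20, adjusted p = 0.00193). In both genes the lowest 5xFAD mouse was well above the highest WT mouse. Grn, which encodes progranulin, a lysosomal cofactor, rose by 0.63 ± 0.11 (adjusted p = 0.00897), and the call was lost without 5xFAD mouse 2 (0.0518) or mouse 3 (0.056), with only the cortex sums (0.0801), with the columns as deposited (0.0849) and with voom (0.409). The cholesterol carrier gene Npc2 rose by 0.71 ± 0.15 (adjusted p = 0.0403), a call lost in all 8 fits without 1 mouse (largest adjusted p = 0.154). Of the lysosomal master regulators, Tfeb had -0.41 (adjusted p = 0.93) and Tfe3 had -0.11 (adjusted p = 0.96), and 0 of the 16 pump subunits and accessory proteins on the list passed.

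MHC class I genes, which present cytosolic peptides to CD8 T cells, were higher in 5xFAD cortex as well. H2-D1 (chromosome 17, 35262730 to 35267499, plus strand), a classical class I heavy chain gene, had 1562, 2254, 2516 and 1925 CPM in 5xFAD, against 742.4, 741.9, 699.2 and 783.6 CPM in WT, a log2 fold change of 1.48 ± 0.17 (adjusted p = 4.25e-05). The WT mice were close to each other and the 5xFAD mice spread over more than the whole WT range. H2-K1, the other classical heavy chain of this strain, had 847.5, 1498, 1840 and 1398 CPM in 5xFAD and 471.6, 589.5, 538.9 and 587.8 CPM in WT (1.35 ± 0.22, adjusted p = 0.00306). 5xFAD mouse 1 was the lowest of its group for both heavy chains. B2m, the light chain that all class I molecules need, had 4245, 4547, 4995 and 3815 CPM in 5xFAD and 2486, 2619, 2557 and 2480 CPM in WT (0.80 ± 0.11, adjusted p = 0.000726). With voom the adjusted p of H2-D1, H2-K1 and B2m were 0.263, 0.237 and 0.439. The non-classical gene H2-T23 rose by 1.02 ± 0.19 (adjusted p = 0.0163), a call lost in 4 of 8 fits without 1 mouse (largest adjusted p = 0.0793, without 5xFAD mouse 2). Of 22 tested members 4 rose and 0 fell, against 0.242% and 0.0518% of all genes tested. All 22 were positive, against 8010 of all 17358 genes tested, and the median was 0.73. The peptide transporter genes Tap1 (0.76, adjusted p = 0.43) and Tap2 (0.39, adjusted p = 0.69) and the immunoproteasome gene Psmb8 (0.34, adjusted p = 0.62) did not pass. Class I heavy chain genes are near copies of each other, and how the authors' counting shared reads among them is not given in the sources used here, so the split between H2-D1, H2-K1 and H2-T23 is uncertain.

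The promoters of 3 of these genes are shown because their genes rose together and the 250 bases before the start held a searched motif; sequences are from RefSeq, build GRCm38.p6, 5′ to 3′ on the strand of the gene, with motif matches in capitals. Searched on both strands were CACGTG (the E-box core), TCACGTGA (a longer form, each match of which holds a CACGTG), GAAANNGAA (an interferon-stimulated element) and GAGGAAG (a PU.1-type site). In Ctsd (chr7:142387828-142388077, minus strand) the first capitals are CACGTG and the second TCACGTGA. In B2m (chr2:122147437-122147686, plus strand) and H2-T23 (chr17:36032702-36032951, minus strand) the capitals are GAAANNGAA, which in H2-T23 lies on the opposite strand. The same 250 bases held none of the motifs in the class I genes H2-D1 and H2-K1, or in Ctsz, Cd68, Gusb, Grn, Hexa and Npc2. Ctsl, Cd63, Pld3 and Man2b1 held a match too and are not printed.
Ctsd: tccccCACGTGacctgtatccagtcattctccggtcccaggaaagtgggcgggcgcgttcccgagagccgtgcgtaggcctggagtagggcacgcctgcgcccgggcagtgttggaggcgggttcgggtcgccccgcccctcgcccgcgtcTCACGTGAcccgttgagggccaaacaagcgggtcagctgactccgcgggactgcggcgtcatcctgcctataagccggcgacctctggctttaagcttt
B2m: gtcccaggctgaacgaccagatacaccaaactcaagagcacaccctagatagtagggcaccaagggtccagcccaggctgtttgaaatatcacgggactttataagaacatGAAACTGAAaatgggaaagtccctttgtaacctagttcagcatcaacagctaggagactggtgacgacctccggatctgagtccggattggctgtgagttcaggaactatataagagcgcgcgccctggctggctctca
H2-T23: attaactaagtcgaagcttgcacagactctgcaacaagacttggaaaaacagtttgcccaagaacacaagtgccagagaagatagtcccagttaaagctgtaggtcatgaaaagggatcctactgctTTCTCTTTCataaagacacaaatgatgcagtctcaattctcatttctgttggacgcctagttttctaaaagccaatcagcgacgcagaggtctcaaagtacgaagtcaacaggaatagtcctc
Over the 32 higher genes with a promoter in the table, CACGTG stood in 4 (12.5%), in Ctsd, Ctsl, Dpp7 and Eef2, beside 6.86% of all 27025 promoters and 9.35% of the 11321 promoters of tested genes, and it also stood in 2 of the 7 lower genes, Cd164 and P2ry12. GAAANNGAA stood in 5 (15.6%), in B2m, Cd9, Dpp7, H2-T23 and Pld3, beside 8.18% of all promoters and 7.82% of those of tested genes, and in 0 of the 7 lower genes. GAGGAAG stood in 12.5% of the higher genes, 12% of all promoters and 13% of those of tested genes, and in 0 of the lower genes. TCACGTGA stood in 3 of the higher genes (9.38%) and 1 of the lower genes, Cd164, beside 0.907% of all promoters and 1.64% of those of tested genes. These matches are letters in a window and were not tested.

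Receptors for debris and lipids were higher for a few members only. Trem2 (chromosome 17, 48346401 to 48354147, plus strand) had 2667, 2749, 2405 and 3210 CPM in 5xFAD and 1770, 2071, 1794 and 1577 CPM in WT (0.61 ± 0.10, adjusted p = 0.00371). Its signalling adaptor gene Tyrobp had 2359, 1798, 1657 and 1755 CPM in 5xFAD and 1346, 973.8, 1056 and 1075 CPM in WT (0.77 ± 0.15, adjusted p = 0.0206). Mouse 1 was the highest of its group in each genotype, and the groups stayed apart; without 5xFAD mouse 1 the adjusted p of Tyrobp was 0.0948, the largest of 4 lost calls. With only the cortex sums in the fit Trem2 had an adjusted p of 0.0652 and Tyrobp 0.0703, and with voom 0.111 and 0.229. Lrp1, a large endocytic receptor for apolipoprotein E and other ligands, rose by 0.83 ± 0.15 (adjusted p = 0.0102; 0.0537 without 5xFAD mouse 4). These were the 3 of 29 phagocytic and complement receptors that passed; 0 fell and the median was 0.40. The complement chain genes C1qa, C1qb and C1qc had 0.24, 0.26 and 0.13 and the phosphatidylserine receptor gene Mertk -0.14, with adjusted p of 0.38, 0.29, 0.55 and 0.83.

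Ly86, which encodes MD-1, a partner of the toll-like receptor homologue RP105, had 1989, 2027, 2176 and 2576 CPM in 5xFAD and 1093, 1049, 1126 and 1235 CPM in WT (0.96 ± 0.12, adjusted p = 0.000154). It was the 1 of 28 inhibitory and adhesion receptors to pass. Lgals3bp, a galectin-binding glycoprotein gene that interferon also induces, had 1332, 1704, 1654 and 944.3 CPM in 5xFAD and 234.3, 310.8, 327.7 and 611.7 CPM in WT (1.92 ± 0.31, adjusted p = 0.00346). The spread was wide within both genotypes, mouse 4 being the lowest in 5xFAD and the highest in WT, yet the groups did not overlap. Serinc3, a membrane serine incorporator gene, had 4618, 4732, 4602 and 4431 CPM in 5xFAD and 3000, 2845, 2958 and 3071 CPM in WT (0.63 ± 0.08, adjusted p = 0.000269), with little spread in either. Voom called none of these 3 (0.053, 0.137 and 0.119), nor Lpl (0.278).

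Lipid genes were among those with the largest changes. Lpl, which encodes the triglyceride-cutting enzyme lipoprotein lipase, had 340.0, 180.6, 148.5 and 164.8 CPM in 5xFAD and 0.689, 0.241, 4.62 and 1.91 CPM in WT (6.79 ± 1.10, adjusted p = 0.00346). Ch25h, whose enzyme makes the oxysterol 25-hydroxycholesterol, had 2199 reads over the 4 5xFAD mice and 3 reads over the 4 WT mice, a depth-scaled ratio of 502 whose exact 95% interval, for counting error only, ran from 171 to 2430 (adjusted p = 0.00897). Its call was lost without the WT well with border macrophage markers (8.74 ± 2.10, adjusted p = 0.101). Hcar2, a receptor for hydroxybutyrate and niacin, had 144.0, 97.8, 67.7 and 147.2 CPM in 5xFAD and 3.96, 0, 0 and 0 CPM in WT (6.98 ± 1.45, adjusted p = 0.0317); the call was lost in 7 of 8 fits without 1 mouse (largest adjusted p = 0.108). Over the lipid and cholesterol list of 30 genes, 4 rose, Lpl, Ch25h, Lrp1 and Npc2, 0 fell, and the median was 0.78.

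Several genes were read in WT cortex little or not at all. Ctse, the endosomal aspartic protease cathepsin E, had 748 reads in 5xFAD and 0 in WT and was at least 171-fold higher against a floor of 3 reads over the group (adjusted p = 0.00552), and Baiap2l2, an inverse BAR domain gene, had 788 reads against 0 and was at least 180-fold higher (adjusted p = 0.0421). The Baiap2l2 call was lost in all 8 fits without 1 mouse (largest adjusted p = 0.115). Ank, a pyrophosphate transporter gene, had 413.0, 376.0, 385.9 and 288.5 CPM in 5xFAD and 10.3, 30.7, 79.3 and 60.6 CPM in WT (3.01 ± 0.58, adjusted p = 0.0198; 0.0881 without WT mouse 2). Myo1e, an unconventional myosin (3.59 ± 0.72, adjusted p = 0.0274; 0.0843 without WT mouse 3), and the actin-capping gene Capg (2.17 ± 0.41, adjusted p = 0.0163; 0.0843 without WT mouse 3) were the 2 of 37 actin and migration genes that rose. Kdelc1, an endoplasmic reticulum glucosyltransferase gene, rose by 2.88 ± 0.50 (adjusted p = 0.00721). Its call ended with the columns as deposited (1.77 ± 0.55, adjusted p = 0.252), without the wells of plate columns 1 and 2 (0.106), with only the cortex sums (0.0652), with voom (0.148) and without wells of other cell types (0.0667). Kdelc1 averaged 42.7 CPM in 5xFAD cortex and 5.79 CPM in WT cortex, beside 37.1 CPM in WT hippocampus and 39.8 CPM in WT cerebellum. With only the cortex sums the calls of Ctse (0.0703) and Ank (0.0536) ended as well.

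The other higher genes with a name were Eef1a1 (0.76 ± 0.14, adjusted p = 0.00924) and Eef2 (0.74 ± 0.15, adjusted p = 0.0258), both translation elongation factors, the kinases Dgkz (1.47 ± 0.26, adjusted p = 0.00924) and Dgkd (1.03 ± 0.21, adjusted p = 0.0331), and Aplp2, a relative of the amyloid precursor gene (1.67 ± 0.31, adjusted p = 0.0151). They also included the sialomucin gene Cd34 (0.87 ± 0.17, adjusted p = 0.0198), the peptidase gene Dpp7 (1.46 ± 0.29, adjusted p = 0.0271), the tetraspanin gene Cd9 (0.61 ± 0.13, adjusted p = 0.0356) and Abhd12, a lipase for lysophosphatidylserine (0.52 ± 0.11, adjusted p = 0.0287). Apart from Eef1a1 and Dgkz, these lost their call in 3 to 8 of the 8 fits without 1 mouse, with a largest adjusted p between 0.0661 (Aplp2) and 0.153 (Cd9). The other 2 higher genes were the predicted transcripts Gm26917 and RP23-359B23.11.

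**Figure D2:**
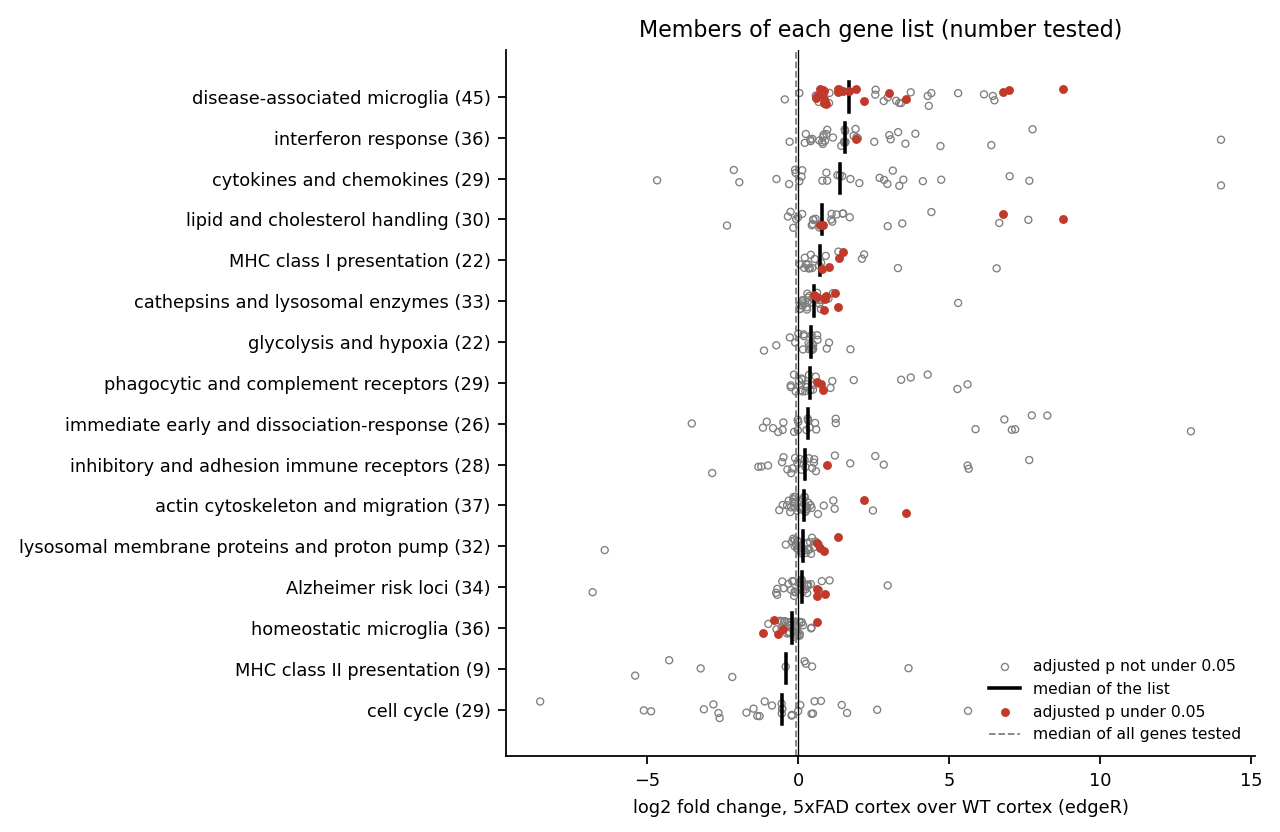
Log2 fold change of each tested member of 16 gene lists, 5xFAD cortex over WT cortex, with filled points for members that passed and black bars at the list medians. The disease-associated list has the highest median, 1.67, and 22 filled points; the interferon and cytokine lists have medians of 1.54 and 1.38 with 1 and 0 filled points, and fitted values beyond about 8 belong to genes with almost no reads in one genotype.

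Of the 45 genes of the disease-associated list, 22 rose and 0 fell, against 0.242% and 0.0518% of all genes tested. Of the 45, 44 were positive, against 8010 of all 17358 genes tested, and the median was 1.67. The list shares 9 members with the lysosomal lists, 6 with the lipid list and 6 with the receptor list, and was compiled with results of these data known, so it adds no separate evidence. Summed over the list, 5xFAD mice had 57220 to 65200 CPM and WT mice 29850 to 31570 CPM. Members best known for this state did not all pass. Apoe, the main lipid carrier of the brain, had 4795, 6410, 3177 and 4107 CPM in 5xFAD and 1796, 75.7, 285.5 and 206.6 CPM in WT (2.97 ± 0.89, adjusted p = 0.261), and the groups did not overlap. WT mouse 1 stood far above the other WT mice, and 97.7% of its Apoe reads came from the well with border macrophage markers; without that well Apoe passed (4.92 ± 0.67, adjusted p = 0.000388). Without the well 2 further members passed, Axl, a receptor for the surface of dying cells (4.29 ± 1.24 with it, adjusted p = 0.239; 7.27 ± 1.22 without it, adjusted p = 0.00425), and Clec7a, the beta-glucan receptor gene (3.73 ± 0.97 with it, adjusted p = 0.139; 4.73 ± 0.94 without it, adjusted p = 0.0207). With all wells 51 genes passed, and without the well 57 did, of which 48 were among the 51; Ch25h, Myo1e and Dgkd lost their call.

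Cst7, the protease inhibitor cystatin F, had 1186, 513.0, 514.2 and 365.9 CPM in 5xFAD and 0, 17.8, 0 and 17.7 CPM in WT (6.16 ± 1.45, adjusted p = 0.0857). Spp1, osteopontin, was low throughout, at 18.7 to 33.9 CPM in 5xFAD and 0 to 0.689 CPM in WT (6.50 ± 1.52, adjusted p = 0.0908). Itgax, the integrin CD11c, had 73.8 to 121.9 CPM in 5xFAD and 0 to 24.5 CPM in WT (3.41 ± 1.37, adjusted p = 0.392), and the growth factor gene Csf1 had 21.4 to 72.9 CPM and 0 to 14.9 CPM (3.35 ± 1.2, adjusted p = 0.378). In none of these 4 did the genotypes overlap, although none passed.

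**Figure D3:**
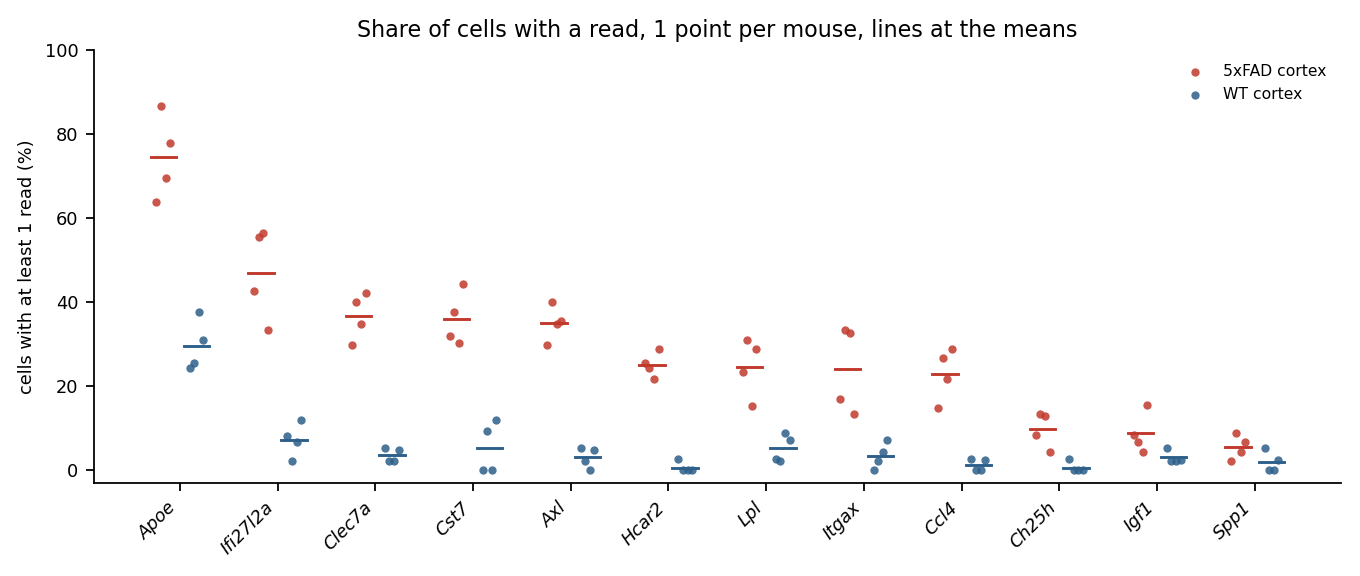
Share of cells with at least 1 read of 12 genes, 1 point per mouse (5xFAD cortex left, WT cortex right), with lines at the means of 4 mice. Apoe was read in 63.8% to 86.7% of the cells of each 5xFAD mouse and 24.3% to 37.8% of the cells of each WT mouse; Igf1 and Spp1 overlap between the genotypes.

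Because single cells were sequenced, the same genes could be read as the share of cells in which they were seen. Apoe was read in 63.8%, 86.7%, 69.6% and 77.8% of the cells of the 5xFAD mice and in 24.3%, 25.6%, 37.8% and 31.0% of those of the WT mice. Cst7 was read in 31.9%, 37.8%, 30.4% and 44.4% of cells in 5xFAD and in 0%, 9.3%, 0% and 11.9% in WT. Every 5xFAD mouse exceeded every WT mouse in both. Clec7a was read in 29.8% to 42.2% of cells in 5xFAD and 2.22% to 5.41% in WT, Axl in 29.8% to 40.0% and 0% to 5.41%, and Ifi27l2a in 33.3% to 56.5% and 2.33% to 11.9%. Of the 12 genes looked at, 10 had shares that did not overlap between the genotypes. The growth factor gene Igf1 (means 8.77% in 5xFAD and 3.08% in WT) and Spp1 (5.51% and 1.95%) overlapped. The 12 genes were picked with results known, so the shares are descriptions without a test. How often shares fail to overlap over all genes was not counted. Since 5xFAD cells were deeper, cells were also thinned to 50000 reads, which left 172 cells in 5xFAD and 133 in WT. The mean share of Apoe was then 66.1% in 5xFAD and 31.3% in WT. In thinned cells Igf1 was read in 4.44% to 15.9% of cells in 5xFAD and 0% to 3.85% in WT. Spp1 was read in 2.5% to 6.98% and 0%, so neither gene overlapped there. Among the blank wells, 4 on each of plates A and B, Apoe and Cst7 each had 1 read in 1 well of plate A, and the other genes had none.

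**Figure D4:**
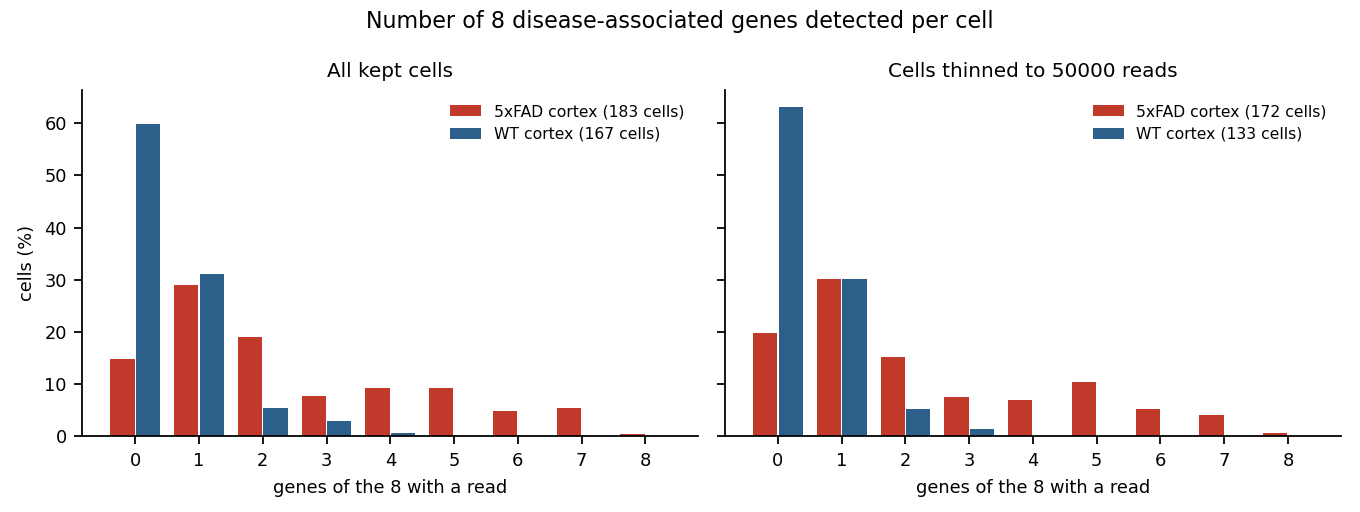
Percentage of cells by how many of 8 disease-associated genes (Apoe, Cst7, Lpl, Clec7a, Itgax, Axl, Ch25h, Spp1) had a read, 5xFAD cortex left and WT cortex right, for all kept cells and for cells thinned to 50000 reads. WT cells pile up at 0 and 1 gene, and 5xFAD cells run to 8 genes with a second low rise at 4 and 5 among all kept cells.

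Counting 8 of these genes per cell (Apoe, Cst7, Lpl, Clec7a, Itgax, Axl, Ch25h and Spp1) showed how they were spread over cells. In 5xFAD 27 of 183 cells (14.8%) had a read of none and 1 had all 8, whereas in WT 100 of 167 (59.9%) had a read of none and the highest number was 4, in 1 cell. Cells with at least 3 of the 8 made up 29.8%, 44.4%, 32.6% and 42.2% in the 5xFAD mice and 5.41%, 2.33%, 0% and 7.14% in the WT mice. At 50000 reads per cell these shares were 27.5% to 39.5% in 5xFAD and 0% to 3.85% in WT, again without overlap. The counts are descriptions without a test, as the 8 genes were picked with results known.

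In the abundant genes most 5xFAD cells lay beyond the WT median, in the direction in which the sums differed. The median 5xFAD cell had 12950 CPM of Ctsd and the median WT cell 7829 CPM, and 80.3% of 5xFAD cells lay above the WT median. For Ctsb 83.6% of 5xFAD cells lay above the WT median and 44.8% above the WT 90th percentile, for H2-D1 83.6% and 47.5%, and for Trem2 80.3% and 31.1%. Malat1 ran the other way, with 11.5% of 5xFAD cells above the WT median, and P2ry12 with 27.3%. By contrast 24.6% of 5xFAD cells had any read of Lpl, against 5.39% of WT cells, and 22.7% against 0.752% in thinned cells. Cells of 1 mouse are not independent, so these percentages carry no test. Apart from the last pair the cells were not thinned, and 172 of 183 5xFAD cells but 133 of 167 WT cells had 50000 reads. Whether most 5xFAD cells or only a part of them were shifted was not tested.

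Of the surveying genes, P2ry12 fell. P2ry12 had 6540, 5985, 5636 and 6745 CPM in 5xFAD and 8332, 8374, 9251 and 9268 CPM in WT, a log2 fold change of -0.50 ± 0.08 (adjusted p = 0.00412). Every 5xFAD mouse was below every WT mouse, and the gene was read in 99.5% of 5xFAD cells and 99.4% of WT cells. Its call ended with voom (adjusted p = 0.0643), without the wells of plate columns 1 and 2 (0.101) and on cell means (0.714). Tmem119, another microglial marker, had 3639 to 4100 CPM in 5xFAD and 4188 to 5108 CPM in WT (-0.34 ± 0.13, adjusted p = 0.392). Cx3cr1 had 5479 to 6472 CPM in 5xFAD and 6191 to 7032 CPM in WT, and the groups overlapped (-0.10 ± 0.08, adjusted p = 0.71). Of 36 homeostatic genes 4 fell, 1 rose, and the median was -0.19, beside -0.09 over all genes. The other 3 that fell were Cd164, a sialomucin (1306, 1148, 955.2 and 974.4 CPM in 5xFAD and 2126, 1966, 2096 and 1516 CPM in WT; -0.81 ± 0.15, adjusted p = 0.00991), Rgs2, a regulator of G protein signalling (-0.66 ± 0.13, adjusted p = 0.0287), and the crystallin gene Crybb1 (-1.18 ± 0.24, adjusted p = 0.0317). Serinc3 was the member that rose. Rgs2 had 604.7 to 698.2 CPM in 5xFAD and 868.1 to 1249 CPM in WT, and Crybb1 92.0 to 139.6 CPM and 179.5 to 331.8 CPM. Leaving out 1 mouse lost the call of Cd164 in 2, of Rgs2 in 6 and of Crybb1 in 7 of 8 fits, with largest adjusted p of 0.0636, 0.134 and 0.165. On cell means Cd164 had an adjusted p of 0.653 and Crybb1 of 0.303; leaving out plate columns 1 and 2 gave Crybb1 0.253.

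Malat1, an abundant nuclear non-coding RNA, had 1946, 1635, 1666 and 1898 CPM in 5xFAD and 3123, 3179, 3000 and 2907 CPM in WT (-0.77 ± 0.11, adjusted p = 0.00109). Slc34a2, a phosphate transporter gene of epithelia, had 772.8, 586.8, 683.7 and 598.9 CPM in 5xFAD and 3198, 2519, 3007 and 2915 CPM in WT (-2.14 ± 0.15, adjusted p = 5.30e-08), the smallest p in the comparison. It was read in every kept cell of both groups, with a median of 149 reads per well in 5xFAD cortex on plate A and 486 in WT cortex on plate B. The blank wells held more: 2674 to 3320 reads on plate A and 1955 to 3686 on plate B, which was 86.9% and 62.0% of their reads. WT cerebellum on plate A had a median of 188.5 reads per well and WT hippocampus on plate B had 618.5. In CPM their means were 978.7 and 3019, beside 1267 in 5xFAD hippocampus and 1235 in 5xFAD cerebellum, both on a further plate. What sets the level of Slc34a2 was not tested. The remaining lower genes, chosen for mention after their values were seen, were mt-Nd3 and the predicted genes Gm15446 and Gm10800. The gene mt-Nd3, for a subunit of respiratory complex I encoded in mitochondria, had 0 reads in 5xFAD and 152 in WT (at least 74.0-fold lower, adjusted p = 0.029). Its call was lost in all 8 fits without 1 mouse, where adjusted p reached 0.0924, and with only the cortex sums (0.0791). This gene was near the floor in every group. It had 0 CPM in 5xFAD hippocampus and cerebellum too, and means of 4.997, 3.358 and 2.842 CPM in WT cortex, hippocampus and cerebellum.

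Interferon-response, cytokine and chemokine genes had high medians and few calls. Of 36 interferon genes 1 rose, Lgals3bp, against 0.242% of all genes tested. Of the 36, 35 were positive, against 8010 of all 17358 genes tested, and the median was 1.54. The list was chosen with earlier results known, so these counts are a description. Ifi27l2a had 63.3, 77.6, 72.2 and 22.1 CPM in 5xFAD and 6.71, 2.41, 6.24 and 8.30 CPM in WT, without overlap (3.31 ± 0.79, adjusted p = 0.0908). Oasl1 had 0.0926, 18.5, 46.1 and 0 CPM in the 5xFAD mice and 0, 0.241, 0 and 0 CPM in the WT mice, high in 5xFAD mice 2 and 3 (adjusted p = 0.252). The list summed to 1938 to 4719 CPM in 5xFAD and 874.2 to 1900 CPM in WT. Of 29 cytokine and chemokine genes 0 passed in edgeR, 10 had an unadjusted p under 0.05, 6 passed in DESeq2 and 0 with voom, and the median was 1.38. Ccl4 had 21.9, 681.7, 250 and 90.9 CPM in 5xFAD and 4.65, 0, 0 and 3.59 CPM in WT (7.01 ± 1.76, adjusted p = 0.115), and Ccl3, its neighbour in function, 102.7 to 321.7 CPM and 0 to 20.1 CPM (4.74 ± 1.5, adjusted p = 0.318). Both were highest in 5xFAD mouse 2. Ccl6 had 322.9 to 653.6 CPM in 5xFAD and 146.9 to 217.6 CPM in WT (1.38 ± 0.33, adjusted p = 0.0879).

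In edgeR 0 of 26 immediate early and dissociation-response genes (median 0.32), 0 of 22 glycolysis and hypoxia genes (median 0.42) and 0 of 29 cell cycle genes (median -0.54) passed. An unadjusted p under 0.05 was reached by 8, 5 and 4 of them, and DESeq2 called 2, 1 and 1. Egr1, a gene that dissociation can induce, had 205.5 and 138.1 CPM in 5xFAD mice 2 and 3, 0 and 2.85 CPM in 5xFAD mice 1 and 4, and 0 in all WT mice. The immediate early list as a whole summed to 1016 to 1755 CPM in 5xFAD and 1303 to 1458 CPM in WT, so the totals overlapped. Hif1a, the hypoxia-inducible factor gene, had 292.7 to 346.0 CPM in 5xFAD and 87.5 to 209.3 CPM in WT (1.02 ± 0.28, adjusted p = 0.174). Of 34 tested genes at Alzheimer risk loci 3 rose, Trem2, Ctsb and Grn, 0 fell, and the median was 0.11. MHC class II genes had 0 of 9 passing in edgeR and 0 in DESeq2, with 2 at an unadjusted p under 0.05, and a median of -0.41. The 1 well with border macrophage markers in WT mouse 1 held all of that mouse's reads of H2-Aa and 99.3% of those in WT cortex, and the direction of this gene turned without it. H2-Aa had -4.28 ± 2.09 (adjusted p = 0.431) with it and 3.30 ± 1.90 (adjusted p = 0.529) without it, H2-Eb1 had -5.40 and 1.44, and H2-DMa had 0.46 and 0.51. Of 81 cytosolic ribosomal protein genes 0 passed in edgeR, 6 had an unadjusted p under 0.05 and 2 passed in DESeq2 (median 0.28), and of 22 mitochondrially encoded genes 1 was lower (median -0.16).

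**Figure D5:**
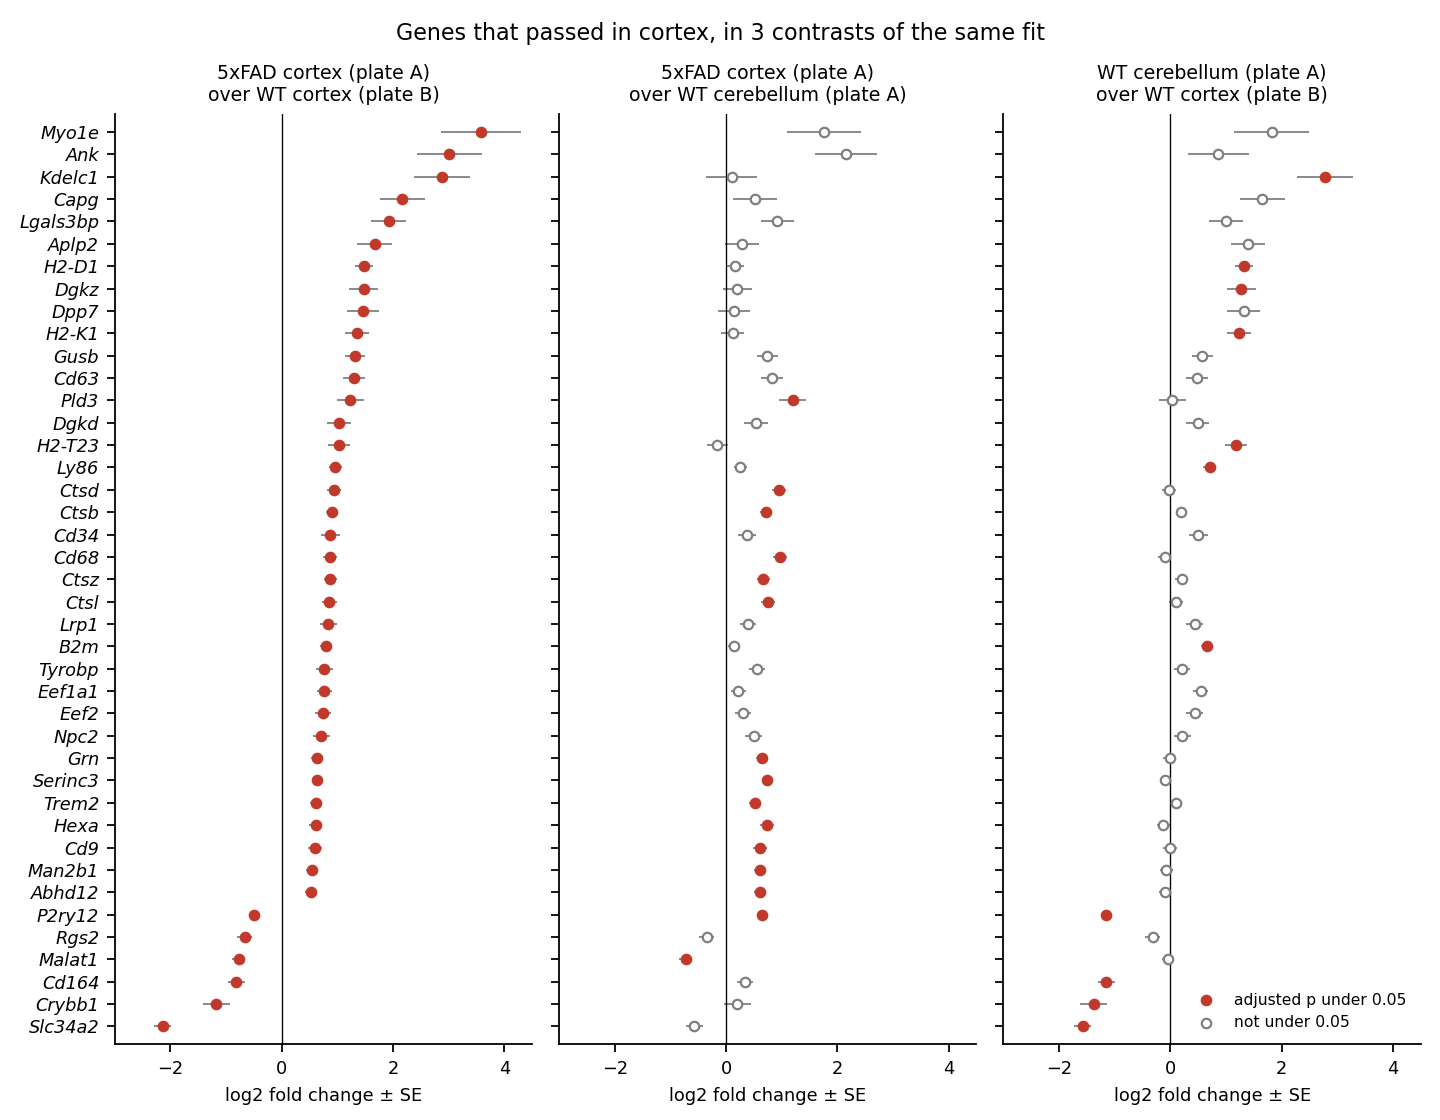
Log2 fold change with SE of 41 genes that passed in cortex, in 3 contrasts of the same fit that share samples: 5xFAD cortex over WT cortex, 5xFAD cortex over WT cerebellum on the same plate, and WT cerebellum over WT cortex. Cathepsins, Cd68, Grn and Trem2 have filled points in the left and middle panels, and H2-D1, H2-K1, H2-T23, B2m and Ly86 in the left and right panels; P2ry12 is lower in the left and right panels and higher in the middle one.

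Plate and genotype are confounded in the cortex, so the genes were also set against WT cerebellum, which shared plate A with 5xFAD cortex but differs from it in both genotype and region. The contrasts share samples, and each gene's values are given side by side. The background was 45 of 17358 genes (0.259%) for 5xFAD cortex over WT cerebellum and 48 (0.277%) for WT cerebellum over WT cortex. Most lysosomal genes that rose were higher in 5xFAD cortex than in either WT group, whereas Gusb, Cd63 and Npc2 did not pass over WT cerebellum. Ctsd averaged 16340 CPM in 5xFAD cortex, 8407 CPM in WT cerebellum and 8555 CPM in WT cortex, and 5xFAD cortex over WT cerebellum gave 0.96 ± 0.13 (adjusted p = 0.000563). Cd68 averaged 1973, 1005 and 1079 CPM in the same order of groups (0.97 ± 0.12 over WT cerebellum, adjusted p = 0.000394), and Ctsb 7827, 4786 and 4192 CPM (0.71 ± 0.10, adjusted p = 0.000709). Over WT cerebellum Trem2 had 0.52 ± 0.10 (adjusted p = 0.0224), Grn 0.65 ± 0.11 (adjusted p = 0.00801) and Serinc3 0.73 ± 0.08 (adjusted p = 7e-05), and Malat1 was lower there too (-0.73 ± 0.11, adjusted p = 0.00319).

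The MHC class I genes and Ly86 gave another picture. H2-D1 averaged 2064 CPM in 5xFAD cortex, 1851 CPM in WT cerebellum and 741.8 CPM in WT cortex, and 5xFAD cortex over WT cerebellum gave 0.16 ± 0.16 (adjusted p = 0.835). B2m averaged 4401, 3988 and 2535 CPM in that order (0.14 ± 0.11, adjusted p = 0.727), and Ly86 2192, 1840 and 1126 CPM (0.25 ± 0.12, adjusted p = 0.456). For these genes WT cerebellum over WT cortex passed, at 1.32 for H2-D1 (adjusted p = 0.000213), 0.65 for B2m (0.00708) and 0.71 for Ly86 (0.00457). Lpl averaged 208.5 CPM in 5xFAD cortex, 123.0 CPM in WT cerebellum and 1.86 CPM in WT cortex, and Slc34a2 660.5, 978.7 and 2910 CPM. P2ry12 was lower in 5xFAD cortex than in WT cortex and higher than in WT cerebellum (6226, 3974 and 8806 CPM in the order 5xFAD cortex, WT cerebellum and WT cortex; 0.65 ± 0.08 over WT cerebellum, adjusted p = 0.000398). WT cerebellum and WT cortex differ in both plate and region, and the 2 cannot be told apart in these genes.

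The difference between genotypes in cortex was then set against that in hippocampus and in cerebellum, each with 3 5xFAD and 4 WT mice. The genotype comparison itself called 176 genes (1.01%) in hippocampus and 8 (0.0461%) in cerebellum. Cortex differed from hippocampus in 8 genes (0.0461%), of which 6 were mitochondrially encoded or predicted genes; with the number block in edgeR 16 genes passed, all 8 among them, and voom called 40 without and 30 with the mouse as a block, 4 of the 8 among them in both. The others were Ctsb, which rose less in cortex (0.90) than in hippocampus (1.69; difference -0.79 ± 0.14, adjusted p = 0.0372, and 0.99 with voom), and Selplg, the P-selectin ligand gene, which had -0.03 in cortex and -0.72 in hippocampus (difference 0.69 ± 0.13, adjusted p = 0.0442). Mean levels of Ctsb were 7827 CPM in 5xFAD and 4192 CPM in WT cortex, and 12460 CPM in 5xFAD and 3861 CPM in WT hippocampus. The 3 mitochondrially encoded genes, named after their values were seen, were mt-Nd5, mt-Co1 and mt-Rnr2. They had 0.06, 0.24 and -0.07 in cortex and 1.15, 1.36 and 1.16 in hippocampus. With voom the adjusted p of their differences were 0.0458, 0.705 and 0.954. WT cortex and WT hippocampus both lay on plate B, whereas 5xFAD cortex lay on plate A and 5xFAD hippocampus on a further plate. Region and plate therefore cannot be told apart in these differences.

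Cortex differed from cerebellum in 14 genes (0.0807%). The class I genes B2m (difference 1.13 ± 0.17, adjusted p = 0.00291), H2-D1 (1.31 ± 0.24, adjusted p = 0.0275) and H2-T23 (1.62 ± 0.29, adjusted p = 0.0201) and the receptor genes Ly86 (1.23 ± 0.17, adjusted p = 0.0025) and Tyrobp (1.13 ± 0.22, adjusted p = 0.0477) rose in cortex, and in cerebellum had -0.33, 0.17, -0.59, -0.27 and -0.37 in the same order, with no gene passing. The H2-D1 difference had an adjusted p of 0.0715 with the number block, and voom gave 0.262 for B2m, 0.384 for H2-D1 and 0.205 for Tyrobp. P2ry12 had -0.50 in cortex and 0.31 in cerebellum (difference -0.81 ± 0.12, adjusted p = 0.00291; 0.339 with voom). Slc34a2 had -2.14 and 0.34 in these regions (difference -2.48 ± 0.22). In cerebellum the WT cells lay on plate A and the 5xFAD cells on the same further plate as 5xFAD hippocampus. The differences from cerebellum thus also set plate A once as the 5xFAD plate and once as the WT plate. Region and plate cannot be told apart in them.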

How the data were processed

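Members and gene lists were chosen with earlier results of these data known. The authors deposited raw counts, reads per gene and well, for 48587 genes; the submitters' processing notes name STAR 2.5.2b, featureCounts 1.5.1 and the build GRCm38. The sources used here do not state annotation, trimming or strand setting. The deposited columns of wells in plate columns 1 and 2 also held wells 10 to 19 or 20 to 24 of their plate row; subtracting these gave 0 negative values among 4664352 (505427 with the next row). In WT cortex mouse 1, 24 of 37 kept cells were such wells. No doublet caller was run. Counts were summed per mouse and region into 22 sums. The test was edgeR 4.0.16 in R 4.3.3 (TMM, filterByExpr, quasi-likelihood, a term per group, Benjamini-Hochberg, threshold 0.05). CPM are scaled to TMM library sizes; SE is the absolute log2 fold change over the root of F. Shares of cells are given per mouse, without a test. On simulated counts of 16001 genes, 46 of 100 genes changed 8-fold and 2 of 100 changed 2-fold were called, with 2 false calls. Alternatives used limma 3.58.1 and DESeq2 1.42.0. Regions came from the same mice, per the series' design text, and replicate numbers were taken to pair regions within a genotype; they number different mice across genotypes. Between regions of the same number, correlations of deviations ran from -0.0675 to 0.0255 over 21 pairs. Genes were named by rule: all that passed except predicted ones, the 3 members with the smallest p of each list, 13 fixed genes and the 8 with the smallest p in each contrast of differences; a few list members were added as background. Positions are from GENCODE vM21.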

Additional observations from a re-analysis of the deposited data

Results flagged for a closer look

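In 9 of 88 groups of 4 mice checked, 1 mouse lay far from the others by Dixon's criterion. Chance gives this in about 1 in 20 for normally spread values, a rate that does not hold for values near 0. The shares of Ch25h and Hcar2 were 0% in WT mice 2, 3 and 4, so any read in WT mouse 1 meets the criterion. Lpl was high in 5xFAD mouse 1, at 340.0 CPM. 5xFAD mouse 2 was high for Spp1 (33.9 CPM) and Axl (264.6 CPM). WT mouse 1 was high for Apoe (1796 CPM) and Axl (40.5 CPM) and for the shares of cells with a read of Ch25h (2.70%), Hcar2 (2.70%) and Igf1 (5.41%); its well with border macrophage markers held 97.7% of its Apoe reads. WT mouse 2 was high for Csf1, at 14.9 CPM.

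The genotype difference in cortex differed by test from that in hippocampus for Ctsb (-0.79) and Selplg (0.69). It differed from that in cerebellum for Slc34a2 (-2.48), Ly86 (1.23), the RNA helicase gene Ddx5 (0.94), B2m (1.13), P2ry12 (-0.81), the zinc transporter gene Slc39a12 (-7.73), Zfp58 (-12.17) and Dock8 (1.29), a guanine nucleotide exchange factor gene. Slc39a12 and Zfp58 had 0.231 and 0 CPM in WT cerebellum, so their fitted differences depend on the prior count. Region and plate cannot be told apart in any of these differences from hippocampus or cerebellum.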

How the results depend on the processing

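The count of 51 genes in cortex was 190 with no filter on low counts, 25 with only the 8 cortex sums, 473 under DESeq2, 476 when limma was run on cell means, and 29 to 46 without 1 mouse (33 and 29 without 5xFAD mice 2 and 3, 32 without either WT mouse 3 or 4). With the replicate block it was 49 in edgeR, and 37 with voom with or without the mouse as a block. Limma on cell means called 353 higher and 123 lower, DESeq2 242 and 231, voom 20 and 17 and the block in edgeR 34 and 15, beside 42 and 9. Of the 51 genes, 4 passed in all 24 settings: Cd68, Cd63, Slc34a2 and Malat1. Ctsb, Ctsd, Ctsz, Ctsl, Gusb, H2-D1, H2-K1, B2m, Ly86, Serinc3, Lpl and Lgals3bp each passed in 22. For these genes only the voom fits, with and without the block, ended the call.

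The 8 genes that set cortex apart from hippocampus became 76 with no low-count filter, 16 with the block in edgeR, 40 with voom, 30 with the block and voom, 363 under DESeq2, 252 on cell means, 4 with thinned cells, 3 without wells of other cell types, and 0 with the stricter cell filter (1146 at an unadjusted p under 0.05) or the columns as deposited (1658), and 0 to 12 without 1 mouse. The 14 that set cortex apart from cerebellum became 95 with no low-count filter, 359 under DESeq2 and 3 on cell means, 7 without plate columns 1 and 2, and 9 to 13 without 1 mouse.

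Without 5xFAD mouse 4 the 0 genes stood beside 1821 at an unadjusted p under 0.05. Signs turned for 6 genes that did not pass; the causes of these changes were not tested. H2-Eb1 had 1.45 and 1.44 without wells of other types or border markers, 0.20 on cell means, and -5.94 to 1.04 without 1 mouse. H2-Aa had 3.29 and 3.30 without these wells, 2.10 with voom or its block, 0.26 on cell means, and -4.96 to 3.01 without 1 mouse; the turn came without WT mouse 1 in both. Cx3cr1 and Selplg had 0.17 and 0.54 on cell means; Selplg 0.015 with no low-count filter, -0.058 to 0.015 without 1 mouse and 0.007 without plate columns 1 and 2; mt-Nd5 -0.003 without other types; mt-Rnr2 0.043 with no cell filter.

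Thinner WT sums limit genes read in few WT cells, and intervals and floors cover counting error only.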
